A study of Mus musculus with 6 samples.

Results

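Cholesterol is kept in balance by genes of opposite roles, and 29 of them were followed here in mouse embryonic stem cells given a vitamin C derivative. The genes came from a list of 33 that covers cholesterol synthesis, uptake, intracellular transport and efflux, and a gene was taken when the array's annotation gave 1 of its features that symbol alone. The 29 genes lie on 31 of the 23521 features with a single symbol, which stand for 22180 genes. Acat2, Soat1 and Nr1h2 had no such feature, and Idi1 lies on a feature of several symbols, so these 4 were not analysed here. Of the 29, 16 encode enzymes of synthesis, and 5 encode the transcription factors named SREBP or proteins that control them. Another 4 move cholesterol between membranes or into the cell, and 4 belong to the LXR pathway and efflux.

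The cells were R1, mouse embryonic stem cells that are male and of strain 129X1 x 129S1, grown on gelatin with fetal bovine serum and LIF, a cytokine that maintains self-renewal. Serum also carries lipoproteins, a source of cholesterol that both groups shared. Untreated cells (NT in the labels) and cells kept for 3 days with 0.74 mM (250 µg/ml) AA2G, ascorbic acid 2-glucose in the labels, have 3 independent replicates each, all of the same line. AA2G is a form of vitamin C that is stable in medium and releases ascorbate when its glucose is cut off. Each sample was measured on 1 Affymetrix Mouse Gene 2.0 ST array, and values are log2 RMA expression values.

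Cells make cholesterol from acetyl-CoA through mevalonate and squalene, and the transcription factor SREBP2 raises the genes of that route when membrane cholesterol falls. Insig proteins hold SREBP and its escort Scap in the endoplasmic reticulum while sterol is plentiful. When sterol is in excess, oxysterols activate the nuclear receptors LXRα and LXRβ, which raise the exporters Abca1 and Abcg1 and the ligase Mylip, also called Idol, which removes lipoprotein receptors. High LXR and low SREBP2 target expression therefore usually go together in a cell loaded with sterol.

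Promoter stretches of 5 genes are shown because they hold the DNA words by which LXR, SREBP and its partner are known to act. They come from RefSeq in build GRCm38.p6, read 5′ to 3′ on the gene's strand, each upstream of the annotated start. A promoter entry was matched for 22 of the 29 genes. Fdps, Fdft1, Sqle, Npc1, Stard4, Scarb1 and Abcg1 were not matched. In Abca1 the capitals mark an E-box (CACGTG) and a match to the LXR element, searched on both strands as GGTNA and then GGTCA with 5 bases of any kind between them, and found here on the opposite strand. In Srebf1 they mark the LXR element alone. In Hmgcs1 they mark a CCAAT box on the opposite strand (ATTGG) and the sterol regulatory element TCACNCCAC, the site of SREBP. In Mvk and Msmo1 they mark CCAAT boxes, which NF-Y, a partner of SREBP, binds.
Abca1 (chr4:53159896-53160145, minus strand): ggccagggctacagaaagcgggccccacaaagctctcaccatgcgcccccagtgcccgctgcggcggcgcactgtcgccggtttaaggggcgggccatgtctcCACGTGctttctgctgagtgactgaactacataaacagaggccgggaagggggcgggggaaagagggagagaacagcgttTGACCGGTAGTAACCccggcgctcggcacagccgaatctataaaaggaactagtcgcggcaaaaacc
Srebf1 (chr11:60210602-60210681, minus strand): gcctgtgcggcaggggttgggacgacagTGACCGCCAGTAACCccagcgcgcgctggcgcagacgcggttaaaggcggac
Hmgcs1 (chr13:119690161-119690240, plus strand): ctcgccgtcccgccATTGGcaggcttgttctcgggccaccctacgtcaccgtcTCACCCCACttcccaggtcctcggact
Mvk (chr5:114444139-114444228, plus strand): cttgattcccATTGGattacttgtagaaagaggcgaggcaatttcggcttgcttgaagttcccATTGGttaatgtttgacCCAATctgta
Msmo1 (chr8:64733619-64733688, minus strand): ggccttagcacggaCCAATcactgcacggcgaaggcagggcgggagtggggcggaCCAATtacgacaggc

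The LXR element begins 67 bases before the start of Abca1 and the E-box 147 bases before it. In windows of 300 bases (250 before the start and 50 after it) the LXR element was found in 0.207% of all 32851 promoters, and among the members in those of Abca1 and Srebf1 only. For Srebf1 it lies 182 bases before the start, in the most downstream of 3 promoter entries. The CCAAT box, searched on both strands, was in 13 of the 16 promoters of synthesis enzymes (81.2%), at least 1 for each of the 13 genes matched, against 37.4% of all promoters. In the LXR and efflux group it was in 1 of 4 promoters, that of Mylip. The sterol regulatory element was in 1 of the 16 synthesis promoters, that of Hmgcs1, and in 1.24% of all promoters. The E-box was in 7 of the 31 promoters of members and in 7.15% of all. These matches describe letters in a fixed window and show no binding in these cells.

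Over all features, arrays of the same group correlated at 0.990 to 0.992 and arrays of different groups at 0.989 to 0.991. To place dim values, 1400 features of olfactory and vomeronasal receptor genes, which stem cells are not known to use, were taken as a background. Their 95th percentile was 4.86, and the brightest feature of every one of the 29 genes had a mean above it. All 12 embryonic stem cell markers were above it too, among them the pluripotency factors Nanog (11.34 ± 0.03 untreated, 11.17 ± 0.04 with AA2G, SD, n = 3) and Pou5f1 (7.64 ± 0.02 and 7.47 ± 0.01), given as defining markers. The smallest p in that list were those of Klf4, at -0.31 ± 0.07, and Klf2, at 0.24 ± 0.07 (SE; limma adjusted p = 0.127 and 0.272). Klf4 passed with arrays weighted (0.0267) and with a trended robust prior (0.0348). Of the 48 measured markers of endoderm, fibroblasts, trophoblast, neuroectoderm and mesoderm, limma called 0 higher and 0 lower. Without adjustment, 2 were higher and 6 lower at p under 0.05, where 4.66% and 5.06% of all features were.

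The efflux gene Abca1 was lower in cells kept with AA2G, and it was the only member to pass the test. Abca1 (Entrez Gene 11303) encodes the membrane transporter that hands cholesterol and phospholipid to lipid-poor apolipoprotein A-I. It was at 6.48, 6.20 and 6.28 on the untreated arrays and at 5.51, 5.44 and 5.60 on the AA2G arrays. The groups did not overlap, and the lowest untreated array lay above the highest AA2G array. Abca1 fell by 0.80 ± 0.09 on the log2 scale (SE; 95% interval -1.02 to -0.59; limma adjusted p = 0.00851), a level 1.75-fold lower with AA2G. Of all features tested, 0.761% passed in either direction, 0.608% as higher and 0.153% as lower, and of the 29 members 0 passed as higher and 1 as lower. The list was drawn up with results of these arrays known, so that count is no independent support. The call was lost without untreated replicate 3 (adjusted p = 0.0519, fall of 0.82) and passed with each of the other 5 arrays left out (adjusted p from 0.0202 to 0.0474). It was also lost with ordinary per-feature variances (adjusted p = 0.168).

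**Figure D1:**
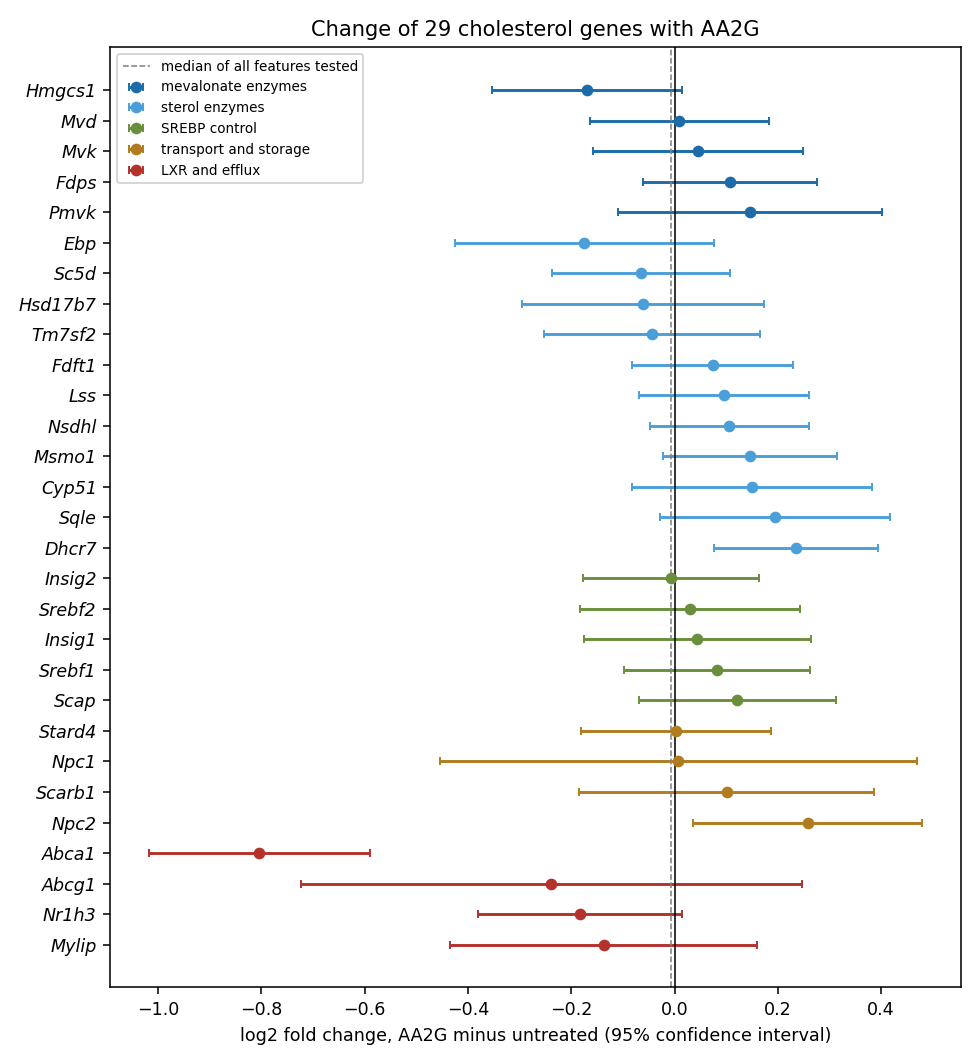
Each point is the log2 fold change of a member (AA2G minus untreated, horizontal axis) with its 95% confidence interval from the limma model over 6 arrays, coloured by role, and the dashed line is the median of all features tested (-0.01). Abca1 stands at -0.80, while the other 28 members lie between -0.24 and 0.26.

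The other 3 genes of the LXR and efflux group had negative values that did not pass. Abcg1, which exports cholesterol to mature high-density lipoprotein, was at 7.57, 7.03 and 7.19 in untreated cells and at 7.42, 6.61 and 7.05 with AA2G. Replicate 1 was the highest and replicate 2 the lowest array in both groups, and the groups overlapped widely. Its log2 fold change of -0.24 ± 0.21 (SE; limma adjusted p = 0.791) has an interval from -0.72 to 0.25, which overlaps that of Abca1 (-1.02 to -0.59). Without AA2G replicate 2 its value was -0.03, and without AA2G replicate 1 it was -0.44.

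Mylip, the ligase that removes lipoprotein receptors, was at 7.27, 6.85 and 6.97 untreated and at 7.08, 6.75 and 6.86 with AA2G. Here too replicate 1 was highest in both groups, and the difference was -0.14 ± 0.13 (SE; limma adjusted p = 0.812). It was -0.02 without untreated replicate 1 and -0.23 without AA2G replicate 1. Nr1h3, which encodes LXRα itself, was at 5.78, 5.60 and 5.84 untreated and at 5.62, 5.53 and 5.51 with AA2G. The lowest untreated array of Nr1h3 was below the highest AA2G array, and the difference was -0.18 ± 0.09 (SE; limma adjusted p = 0.550). The group of 4 had 0 positive values and a median of -0.21, or -0.18 for the 3 without Abca1, against a median of -0.01 and 47.7% positive values over all features tested.

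**Figure D2:**
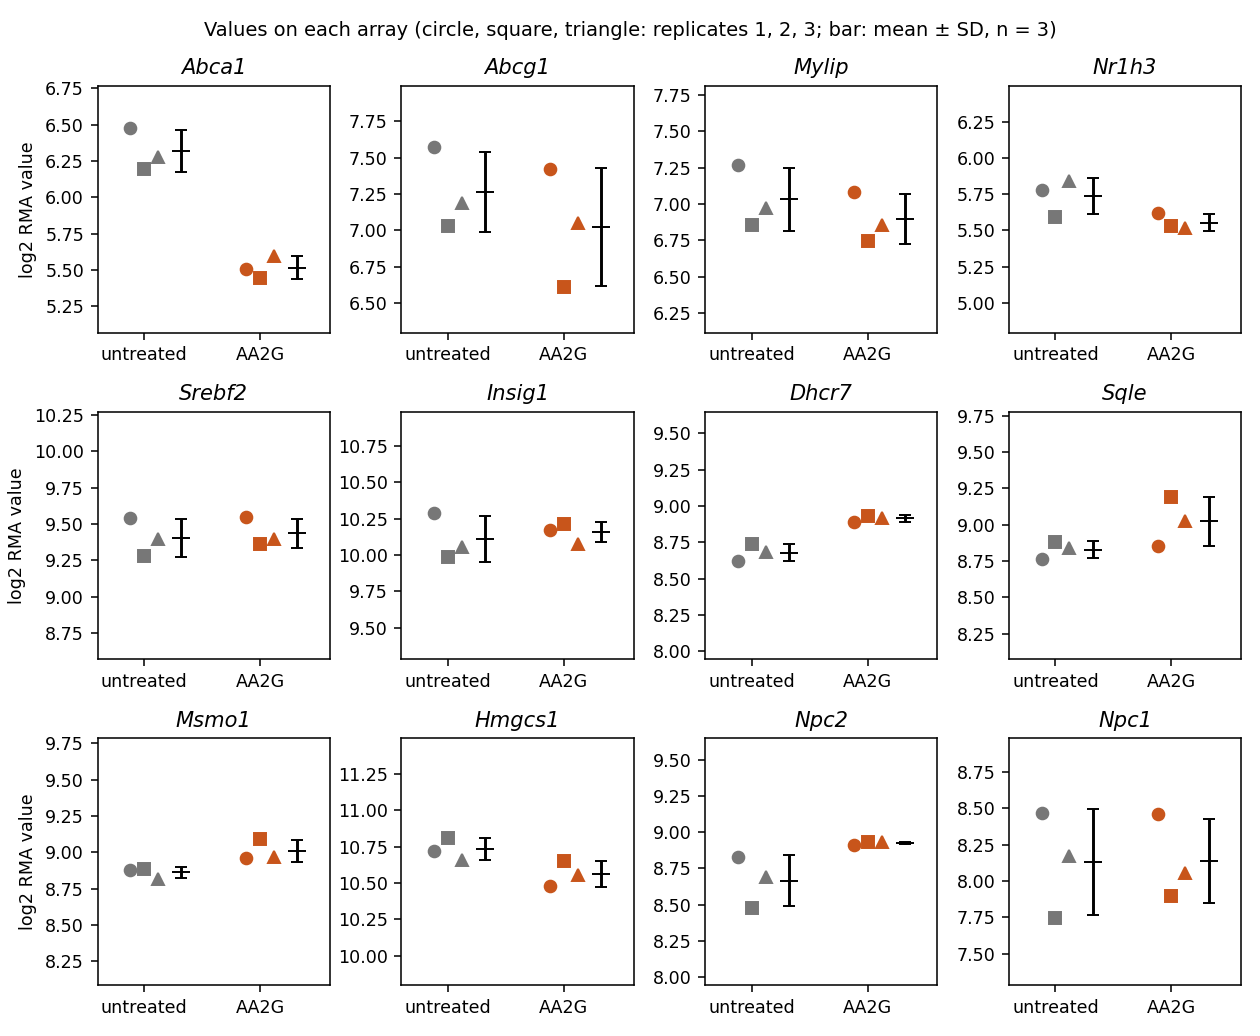
Log2 RMA values of 12 members on each array, untreated in grey and AA2G in orange, with circle, square and triangle for replicates 1, 2 and 3 and the bar for the mean ± SD (n = 3). Each panel spans the same height in log2 units but starts at its own level. Abca1 separates by 0.80, whereas for Abcg1 and Npc1 the arrays spread widely within each group and the groups overlap.

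Srebf1, itself a target of LXR and shown above with an LXR element, did not follow Abca1. It was at 7.13, 7.09 and 7.09 untreated and at 7.21, 7.28 and 7.07 with AA2G, a difference of 0.08 ± 0.08 (SE; limma adjusted p = 0.811). The feature does not tell its transcripts apart. Its interval, from -0.10 to 0.26, does not reach the interval of Abca1.

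None of the synthesis enzymes passed the test, and their values lay close to 0. Of the 16, 11 had positive values and the median was 0.08, with values from -0.17 to 0.24 and standard errors from 0.07 to 0.11. All 16 intervals lay within a change of 1.5-fold in either direction, as did those of 22032 of all 23521 features. The outermost bounds among the 16 were -0.42 and 0.42. For 5 of the 16 the AA2G arrays were all above the untreated arrays, where 7.21% of all features were, and for 1 they were all below, where 8.48% were. Without adjustment, 1 was higher (Dhcr7) and 0 were lower at p under 0.05, where 4.66% and 5.06% of all features were. The mean of the 16 genes, each centred on its own mean, was -0.02, -0.04 and -0.01 on the untreated arrays and -0.02, 0.07 and 0.03 with AA2G. AA2G replicate 1 lay within the untreated range, and AA2G replicates 2 and 3 lay above it. Without untreated replicate 2 the median was 0.04.

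In the early, mevalonate part of the route, Hmgcs1 had the only negative value. It encodes HMG-CoA synthase, which makes the precursor of mevalonate, and its promoter is the one shown with a sterol regulatory element. Hmgcs1 was at 10.72, 10.81 and 10.66 untreated and at 10.48, 10.65 and 10.55 with AA2G. Every AA2G array was below every untreated array, though the nearest almost met, and the difference was -0.17 ± 0.08 (SE; limma adjusted p = 0.552).

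Fdps, which makes farnesyl pyrophosphate, was at 9.36, 9.25 and 9.38 untreated and at 9.39, 9.47 and 9.46 with AA2G. Its groups just failed to overlap, in the direction opposite to Hmgcs1, with a difference of 0.11 ± 0.07 (SE; limma adjusted p = 0.716). Pmvk, phosphomevalonate kinase, was at 8.68, 8.35 and 8.71 untreated and at 8.82, 8.64 and 8.72 with AA2G, and the groups overlapped because untreated replicates 1 and 3 lay above AA2G replicate 2. Without untreated replicate 2, which was low, its difference of 0.15 became 0.03. Mevalonate kinase, Mvk, and mevalonate decarboxylase, Mvd, differed by 0.05 and 0.01.

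Among the 11 enzymes from squalene to cholesterol, Dhcr7 had the smallest p. It encodes a reductase of the final step, and it was at 8.62, 8.74 and 8.68 untreated and at 8.89, 8.94 and 8.92 with AA2G. All AA2G arrays were above all untreated arrays, by 0.24 ± 0.07 on average (SE; 95% interval 0.08 to 0.39), but the gene did not pass (limma adjusted p = 0.269).

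Sqle, squalene epoxidase, a rate-limiting enzyme, was at 8.77, 8.88 and 8.84 untreated and at 8.85, 9.19 and 9.03 with AA2G. Replicate 1 of AA2G fell among the untreated arrays, and the difference was 0.20 ± 0.10 (SE; limma adjusted p = 0.581). Msmo1, which removes methyl groups from the sterol ring, was at 8.88, 8.88 and 8.82 untreated and at 8.96, 9.09 and 8.97 with AA2G, without overlap and without passing (0.15 ± 0.07, limma adjusted p = 0.582).

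Nsdhl, the sterol dehydrogenase that works with Msmo1, and Fdft1, squalene synthase, also had no overlap between the groups, at 0.11 and 0.07. Cyp51, the lanosterol demethylase, was at 0.15 with 1 low untreated array (8.30 against 8.66 and 8.59) and at 0.04 without it, and lanosterol synthase, Lss, was at 0.10. Values were negative for the sterol isomerase Ebp (-0.17 ± 0.11, SE), the desaturase Sc5d (-0.07), the ketoreductase Hsd17b7 (-0.06) and the sterol reductase Tm7sf2 (-0.04). None of these 8 passed, with limma adjusted p from 0.682 to 0.933 among them.

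**Figure D3:**
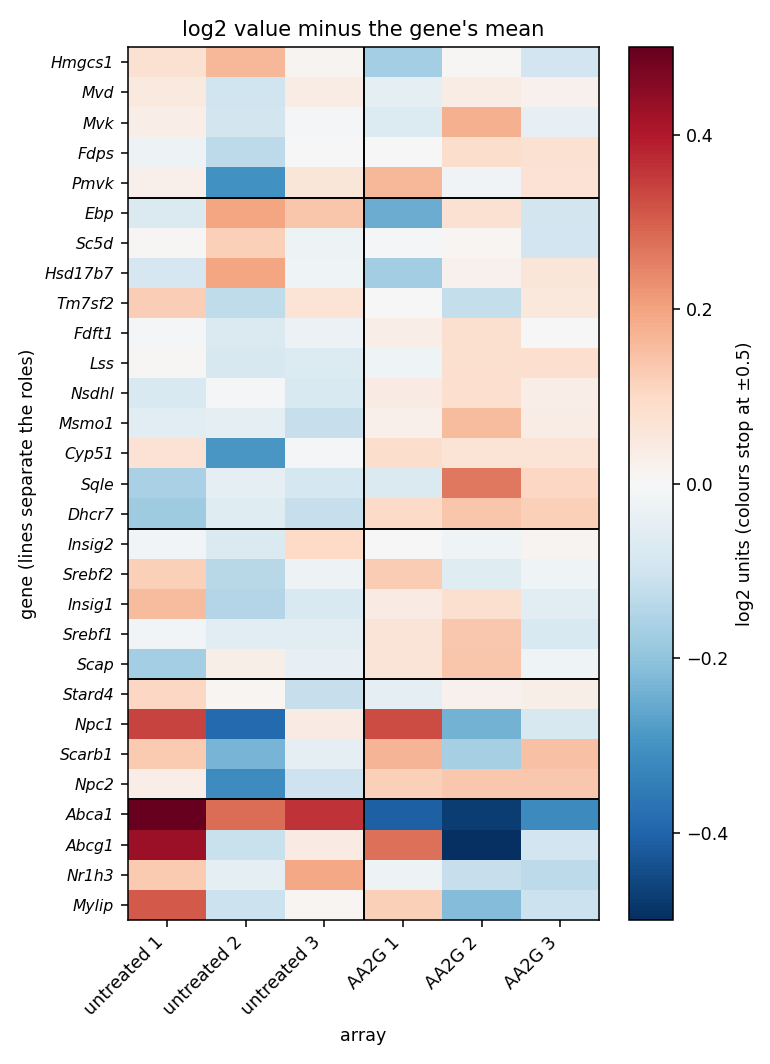
Rows are the 29 members by role and columns the 6 arrays, and colour is the log2 value minus the gene's mean over all arrays, in log2 units with colours ending at 0.5 either way. Abca1 is positive on all untreated arrays and negative on all AA2G arrays, while Abcg1, Mylip and Npc1 have the same order of replicates in both groups.

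The genes of SREBP and of its control stayed close to their untreated values. Srebf2, the gene of SREBP2, was at 9.54, 9.28 and 9.40 untreated and at 9.55, 9.36 and 9.40 with AA2G, so both groups covered nearly the same range (0.03 ± 0.09, SE; limma adjusted p = 0.957). Insig1, the most responsive brake of the pathway and itself a target of SREBP, was at 10.29, 9.99 and 10.06 untreated and at 10.17, 10.21 and 10.08 with AA2G. The AA2G arrays of Insig1 lay inside the untreated range, and its difference was 0.04 ± 0.10 (SE; limma adjusted p = 0.937).

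Scap, the escort of SREBP, was at 7.53, 7.73 and 7.66 untreated and at 7.77, 7.84 and 7.68 with AA2G, with a difference of 0.12 ± 0.08 (SE; limma adjusted p = 0.716) and 0.02 at its second feature. Insig2, which is less tied to SREBP activity, differed by -0.01, a sign that turned positive with quantile normalization repeated (0.002). The 5 genes had a median of 0.04, which was 0.10 without untreated replicate 1 and -0.02 without untreated replicate 2. None of their intervals went beyond -0.18 or 0.31.

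Npc2 had the smallest p of the transport genes and did not pass. It encodes the soluble protein of the lysosome that takes up cholesterol freed from lipoproteins and passes it to Npc1 in the membrane. Npc2 was at 8.83, 8.48 and 8.69 untreated and at 8.91, 8.93 and 8.93 with AA2G. All AA2G arrays lay above the untreated ones and close together, with a difference of 0.26 ± 0.10 (SE; 95% interval 0.04 to 0.48; limma adjusted p = 0.421). Without untreated replicate 2, its lowest array, the value was 0.16. Its partner Npc1 was at 8.47, 7.74 and 8.17 untreated and at 8.46, 7.90 and 8.05 with AA2G. Npc1 varied among the arrays of each group far more than between the groups (0.01 ± 0.20, SE; limma adjusted p = 0.995). The sign of that value turned negative with array weights (-0.04). A second Npc1 feature, at 4.17 ± 0.11 untreated (SD, n = 3), was not above the receptor background and differed by -0.09.

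Scarb1, the receptor that exchanges cholesterol with high-density lipoprotein, was at 8.57, 8.21 and 8.39 untreated and at 8.61, 8.28 and 8.59 with AA2G, with widely overlapping groups (0.10 ± 0.12, SE; limma adjusted p = 0.864). Stard4, a carrier of sterol through the cytosol and a target of SREBP2, was at 7.51, 7.42 and 7.29 untreated and at 7.37, 7.43 and 7.44 with AA2G, a difference of 0.003 whose sign was negative with arrays shifted to 1 median. The 4 transport genes had a median of 0.05.

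Other genes of the pathway were taken from 6 further lists, 83 genes in all, of which 0 rose and 0 fell past the limma threshold. Without adjustment, 3 were higher and 5 lower at p under 0.05, near the 4.66% and 5.06% of all features, and the median was 0.003. The smallest p among them was that of Pltp, a phospholipid transfer protein of lipoproteins and a known target of LXR. Pltp was at 10.15, 9.94 and 10.18 untreated and at 9.62, 9.58 and 9.65 with AA2G, without overlap. Its difference of -0.48 ± 0.08 (SE) narrowly missed the threshold (limma adjusted p = 0.0581). It passed as lower among brighter features only (0.0288), with arrays weighted (0.0125), under a trended robust prior (0.0121) and without untreated replicate 2 (0.0427), and across the remaining settings the adjusted p ran from 0.0558 to 0.252.

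The list of other LXR targets and exporters to which Pltp belongs had 15 measured genes with a median of -0.10, 6 positive and 9 negative values. Of the 15, 5 were not above the receptor background. The list also holds the receptors Rxra, Rxrb, Rxrg and Nr1h4, so its median is not that of LXR targets alone. Abca2, a lipid transporter of endosomes, was at -0.27 ± 0.11 (SE; limma adjusted p = 0.472). Abca5 and Lpcat3, named after their values were seen, were at 0.26 ± 0.11 and 0.09 ± 0.07 (SE; limma adjusted p = 0.478 and 0.757). Mir33, named after its value was seen, lies within Srebf2, and its product miR-33-5p is known to repress Abca1 through its seed, bases 2 to 8, in capitals here (RefSeq, GRCm38.p6, chr15:82198127-82198147, plus strand).
mmu-miR-33-5p: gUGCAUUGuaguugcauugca
The feature of Mir33 was at 2.82 ± 0.14 untreated and 3.00 ± 0.32 with AA2G (SD, n = 3), below the receptor background of 4.86, so these arrays give no usable level for it.

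**Figure D4:**
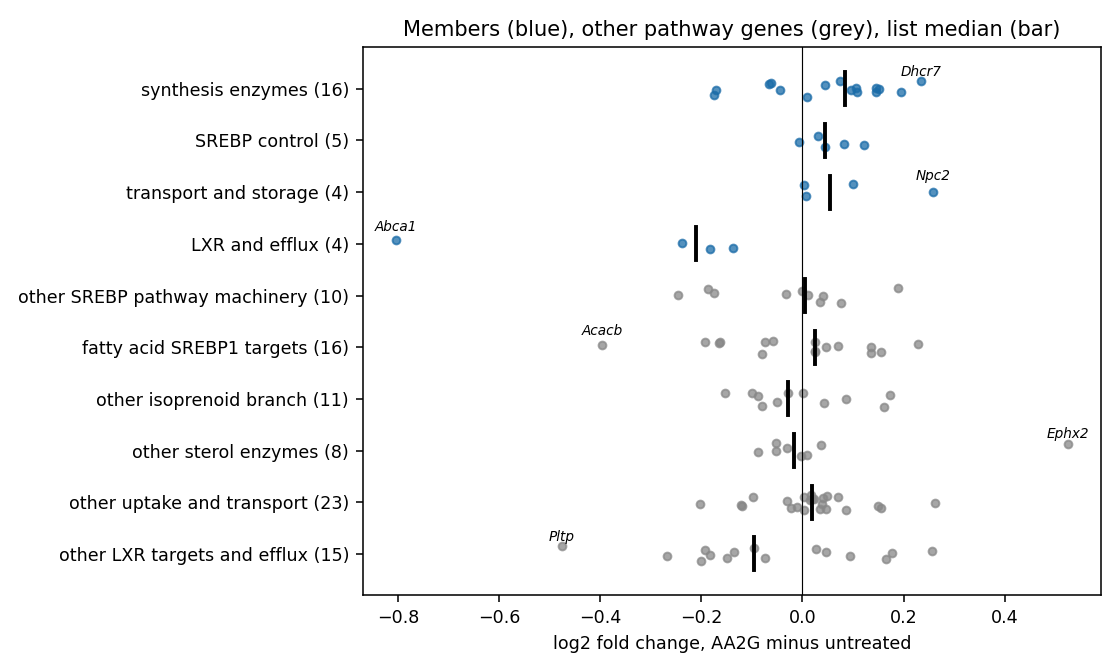
Points are log2 fold changes (AA2G minus untreated, horizontal axis) of single genes, members in blue and the other pathway lists in grey, with the number of genes in brackets and a bar at the median of each list. The LXR and efflux members and the list of other LXR targets and efflux, which also holds receptor genes, have the lowest medians, -0.21 and -0.10. The synthesis enzymes have the highest, 0.08.

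Fatty acid genes, the targets of SREBP1, had a median of 0.02 over 16 genes. Acacb, the acetyl-CoA carboxylase of mitochondria, was at 6.03, 5.74 and 5.82 untreated and at 5.59, 5.38 and 5.42 with AA2G, without overlap (-0.40 ± 0.10, SE; limma adjusted p = 0.183). Mid1ip1, which activates acetyl-CoA carboxylase, was at -0.16 ± 0.07, with -0.01 and -0.04 at its other features. In the further machinery of SREBP, 10 genes with a median near 0.00, Erlin1, which takes part in the sterol-driven breakdown of the pathway's enzymes, was at 0.19 ± 0.07 (SE; limma adjusted p = 0.370). The ubiquitin ligase Rnf145, also an LXR target, was at -0.25 ± 0.10 (limma adjusted p = 0.444).

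The remaining 3 lists stayed near 0 as well. Ephx2, an epoxide hydrolase counted with 7 other sterol enzymes, was at 8.73, 7.95 and 8.31 untreated and at 8.97, 8.75 and 8.83 with AA2G, a difference of 0.52 ± 0.18 (SE; limma adjusted p = 0.354) that did not pass and that was 0.33 without untreated replicate 2 and 0.73 without untreated replicate 1. Lbr, the sterol reductase of the nuclear envelope, was at -0.09. In uptake and transport, 23 genes with a median of 0.02, Osbpl5 was at -0.20 and Tmem97, a regulator of Npc1, at 0.15. The isoprenoid branch, 11 genes with a median of -0.03, held Pdss2, of ubiquinone synthesis, at 0.17 and Dolk, of dolichol phosphate synthesis, at -0.15.

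Single markers of most other cell types lay on both sides of 0, and those named here were chosen after their values were seen. The mesoderm and primitive streak list of 7 measured genes was the exception, with 0 positive and 7 negative values and a median of -0.05. The fibroblast list had 5 positive and 5 negative values, and the neuroectoderm list 2 and 5. In the endoderm list of 15 measured genes, 8 values were positive and 7 negative. The AA2G arrays were all above the untreated arrays for 3 of the 15 genes and all below for 4. Among all features, 7.21% were all above and 8.48% all below. Lama1, a laminin, and Sparc, a matrix protein, were at 0.50 ± 0.09 and 0.34 ± 0.07 (SE; limma adjusted p = 0.0706 and 0.0925), while Cubn and Sox7 were at -0.26 ± 0.10 and -0.20 ± 0.09 (0.453 and 0.501). In the trophoblast list of 10 measured genes, 6 values were positive and 4 negative, with a median of 0.04. Its keratins Krt8 and Krt18 were at -0.35 ± 0.07 and -0.43 ± 0.10 (SE; limma adjusted p = 0.0894 and 0.126), with 0.12 at the second feature of Krt18.

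Some of these passed in other settings. Restricting the fit to brighter features brought Lama1 (0.0372), Sparc (0.0453) and Krt8 (0.0409) past the threshold. Weighting the arrays did so for Lama1 (0.0120), Sparc (0.0217), Krt8 (0.0209) and Krt18 (0.0331), and a trended robust prior for Lama1 (0.0336) and Sparc (0.0345). Lama1 also passed without untreated replicate 1 (0.0312). The mean log2 level of the 15 measured endoderm markers ranged from 5.63 to 5.75 on the untreated arrays and from 5.65 to 5.68 with AA2G, with 13 of the 15 above the receptor background. Of the 12 stem cell markers, 4 values were positive and 8 negative, and limma called 0 higher and 0 lower. The AA2G arrays were all above the untreated arrays for 1 gene and all below for 3, against 7.21% and 8.48% of all features. The mean of the 12 stem cell markers ranged from 9.65 to 9.68 untreated and from 9.60 to 9.62 with AA2G, without overlap. The mean of the 7 mesoderm and primitive streak markers ranged from 5.51 to 5.59 and from 5.40 to 5.49, also without overlap. For the endoderm, fibroblast, trophoblast and neuroectoderm lists the means overlapped. The shares of 7.21% and 8.48% hold for single features, and a share for means of gene lists was not computed. Whether these levels have a part in the fall of Abca1 was not tested. Fewer cells that carry Abca1 RNA and less of it per cell cannot be told apart in RNA from a whole culture.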

How the data were processed

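The authors deposited log2 expression values per transcript cluster, and the submitters' processing notes name RMA and the Affymetrix Expression Console as tools. For versions, annotation release and filters, the sources used here give nothing. RMA makes the array distributions alike, so a change in total RNA is not seen, and folds of dim features are understated. Features with 1 gene symbol in the platform annotation (23521 of 41345) were fitted in R 4.3.3 with limma 3.58.1 (lmFit and eBayes, AA2G against untreated, 3 arrays each, without covariates). Benjamini-Hochberg adjustment of the two-sided p-values ran over all 23521, with a threshold of 0.05, and measure only the spread between these cultures. Exact permutation was not used, since its smallest p with 3 and 3 arrays is 0.1. A gene with several features is given by its brightest. The procedure was tested on simulated data.

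The members and lists were chosen with earlier results of these data known. All members are named. Full values are given for those called, the 3 smallest p of each role and 7 fixed genes, of which Nr1h2 was not analysed. Those of Npc1 and Mylip are given outside this rule. The 2 smallest p of each other pathway list are named. Cell type markers, Mir33, Abca5 and Lpcat3 are named outside this rule, after their values were seen. Alternatives were a trended robust prior, quantile normalization repeated, array weights, a shift of arrays to 1 median, a replicate block, brighter features (mean above 4.99, percentile 40), all features, 1 feature per gene, ordinary variances and each array left out.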

Additional observations from a re-analysis of the deposited data

How the results depend on the processing

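Abca1 was negative under all 9 alternatives and with each array left out, from -0.86 to -0.72 with an array left out (limma adjusted p 0.0202 to 0.0519). It lost the threshold with ordinary per-feature variances (-0.80, limma adjusted p = 0.168), where 0 members passed in place of 1 and 13 features in all passed in place of 179, and without untreated replicate 3, where again 0 members passed. In the other settings Abca1 was the only member called, so members past the threshold ranged from 0 to 1 with an array left out. Features past the threshold numbered 277 with the trended robust prior, 496 with array weights and from 64 to 131 with an array left out. Medians with an array left out ran from 0.04 to 0.10 for synthesis, -0.018 to 0.0961 for SREBP control, 0.01 to 0.18 for transport and -0.33 to -0.12 for LXR and efflux. Signs turned for Insig2 with quantile normalization repeated (0.0019), Stard4 with 1 median (-0.0011), and with array weights for Npc1 (-0.0399) and Mvd (-0.0053). Abca5 and Lpcat3 were not followed over the settings. With an array left out, signs turned for 10 of the 51 genes followed other than Abca1, with ranges of -0.0448 to 0.0417 for Insig2, -0.12 to 0.0221 for Hsd17b7, -0.0326 to 0.0971 for Srebf2, -0.19 to 0.18 for Npc1, -0.0538 to 0.0548 for Stard4, -0.12 to 0.0076 for Tm7sf2, -0.018 to 0.133 for Insig1, -0.0319 to 0.0909 for Mvk, -0.0378 to 0.0361 for Mvd and -0.14 to 0.0079 for Lbr. The cause of these changes was not tested. Same-numbered arrays deviated together for numbers 1 and 2 (r = 0.231 and 0.224 across features, which are no independent replicates), and the value for number 3 was 0.0169. Deviations from a mean of 3 arrays sum to 0, so the value for number 3 follows from the other arrays. It is no separate evidence on pairing. Each array correlated best with its own number, a hint from the data only, and the numbers were not taken as pairs in the main fit. With the replicate block 155 features passed, and Abca1 stayed past the threshold at -0.80 (limma adjusted p = 0.0366). In that fit Abcg1 at -0.24 ± 0.08 and Mylip at -0.14 ± 0.06 (SE) did not pass (limma adjusted p = 0.354 and 0.461). An array gives no read depth, and 3 arrays a group limit the precision.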
